A study of Mus musculus with 12 samples.

Results

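Dlx5 and Msx2 are homeobox genes of osteoblasts, and the values below describe both in MC3T3-E1 cells under fluid shear and in static controls. The members were all probes of the deposited array table to which the platform annotation gave the single gene symbol Dlx5 or Msx2. There were 4 such probes of 28704, 2 for each gene. Dlx5 (Entrez gene 13395) lies on chromosome 6 at 6877801 to 6882068, and Msx2 (Entrez gene 17702) lies on chromosome 13 at 53466881 to 53472780, both in GRCm38.p6. Of the 4 probes, 1 of Dlx5 (probe 21247) and 1 of Msx2 (probe 6579) had enough values for a test. The other probe of Msx2 had a value in 2 samples and the other probe of Dlx5 in none.

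Both genes encode transcription factors that bind DNA through a homeodomain. Dlx5, a vertebrate relative of the fly Distal-less gene, is induced by bone morphogenetic proteins (BMPs) and activates genes of the osteoblast programme, among them Runx2, Sp7 and those for matrix proteins such as osteocalcin and bone sialoprotein. Msx2, a relative of the fly muscle segment homeobox gene, acts mainly as a repressor. Msx and Dlx proteins recognise similar AT-rich sites and can form dimers with each other, so the balance between them is known as one of the controls on how far an osteoblast matures. In the skull, gain and loss of Msx2 activity both disturb the growth of the calvaria, the tissue from which the MC3T3-E1 line was derived.

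The promoter of Msx2 is shown because the homeodomains of both proteins recognise sites of the kind it holds. The sequence is the 250 bases before the start of the gene from RefSeq, GRCm38.p6, chr13:53472781-53473030, minus strand, with the start of the gene following its last base. Capitals mark the letters TAATTA, a core that many homeodomains recognise, and CCAAT, the letters of the CCAAT box, each searched on both strands.

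Msx2 promoter: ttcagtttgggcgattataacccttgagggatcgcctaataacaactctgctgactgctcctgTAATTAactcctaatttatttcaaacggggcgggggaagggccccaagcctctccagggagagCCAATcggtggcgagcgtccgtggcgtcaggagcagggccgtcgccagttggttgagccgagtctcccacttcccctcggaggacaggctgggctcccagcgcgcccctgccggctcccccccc

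TAATTA occurred 1 time, with its first base at position -187 from the start, and CCAAT occurred 1 time, with its first base at position -124. Among 32851 promoters cut to the same length, 4.84% held TAATTA and 33.8% held CCAAT. The matches describe the letters of this window, and no binding was measured in this study.

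MC3T3-E1 is an established clonal line of osteoblast-like cells, so all 12 samples stem from 1 clone. Monolayers grown to confluence on glass, in medium with 5% serum, were either held static (control, 6 samples) or exposed to flow (shear, 6 samples) in a chamber with 1% serum. The flow pulsed at 1 Hz with a mean shear stress of 5 dyn per square centimetre and lasted 5 h. Total RNA was labelled with Cy5 for odd replicate numbers and Cy3 for even ones, and 6 arrays carried 2 samples of 1 group each, 3 arrays per group. Separate cultures are not stated in the labels, so each p-value reflects only how far these samples differ, and that spread may be technical.

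Values are log2 of a spot's net fluorescence over the median of its block of 598 features, so 0 is the block median and a shift shared by all genes cannot be seen. Between 18434 and 23790 features had a value in a sample, and the median net fluorescence per sample lay between 243 and 868. Samples of the same array correlated at 0.954 to 0.981 over features, and other samples of the same group at 0.873 to 0.915. Of the 11 osteoblast markers listed, 4 were measured, and none of the 4 passed the test, which 1.49% of all features did. Sparc, the matrix protein osteonectin, had a mean of 5.48 ± 0.53 (SD, n = 6) in control and 5.60 ± 0.36 in shear samples. Col1a2, a chain of type I collagen, had 4.40 ± 1.10 and 4.45 ± 1.08, and Col1a1, the other chain, had 1.65 ± 0.89 and 1.40 ± 1.05. Alpl, the alkaline phosphatase of mineralising cells, lay below the block median, at -1.01 ± 0.97 and -0.95 ± 0.74. By their other probes the change under shear was -0.71 for Sparc, 0.45 for Col1a2 and 0.01 for Alpl. The markers Runx2, Sp7, Bglap, Ibsp, Spp1 and Cdh11 had no probe under a single symbol in the annotation used here, and Pth1r had too few values. Markers of other cell types were measured for macrophages and osteoclasts (4 of 9), endothelium (5 of 8), adipocytes (3 of 7), cartilage (4 of 7) and muscle (3 of 8). The control means of these markers ran from -2.07 (Mylpf) to 3.79 (Tnnt1), both of muscle, so some read above Col1a1 and Alpl. Their changes lay between -0.68 and 0.44. None of them passed or had an unadjusted p under 0.05, which 2157 of 15603 features had.

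Dlx5 was lower in every sheared sample than in every control sample. On the log2 scale its probe read 0.92, 0.51, 0.64, 0.47, 0.54 and 0.31 in control replicates 1 to 6. It read -0.31, -0.80, 0.22, -0.30, -0.42 and -0.82 in shear replicates 1 to 6. All control values lay above the block median and 5 of 6 shear values below it, with shear 3 as the highest of its group, and the groups did not overlap. Among the 17080 features with a value in all samples, 201 (1.18%) had every shear value below every control value. The control mean was 0.57 ± 0.20 (SD, n = 6) and the shear mean -0.40 ± 0.39 (SD, n = 6). In bulk RNA, fewer cells that express a gene and less of its RNA per cell cannot be told apart.

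**Figure D1:**
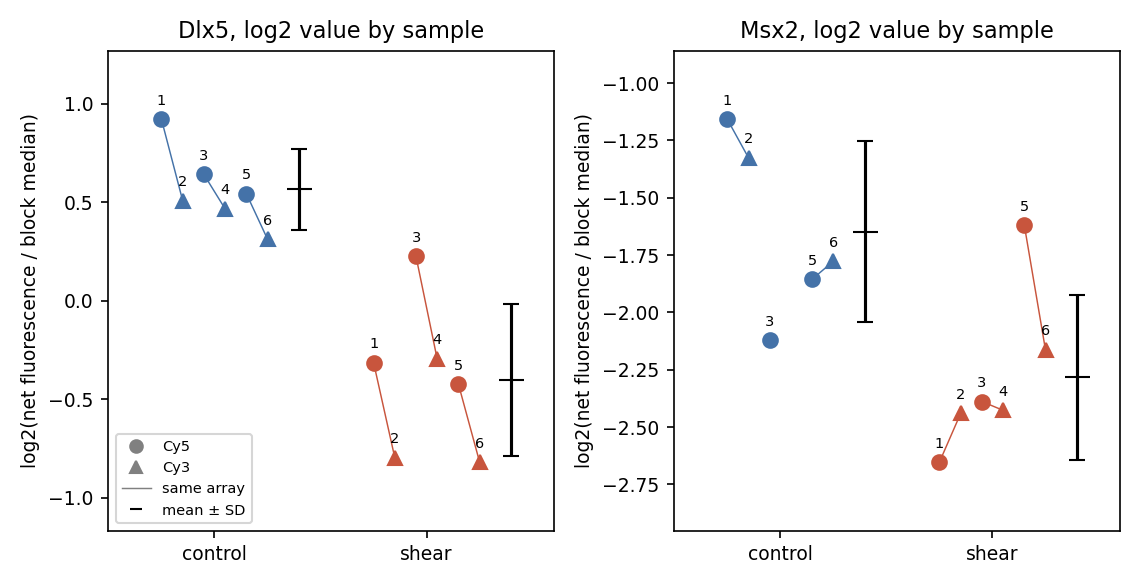
The log2 value of the Dlx5 probe (left) and the Msx2 probe (right) in each sample, as net fluorescence over the block median, with replicate numbers beside the points. Circles are Cy5 and triangles Cy3 samples, lines join samples of 1 array, and bars give the group mean ± SD; the lowest Dlx5 control, at 0.31, lies above the highest shear sample, at 0.22, while the Msx2 groups overlap at shear 5.

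The net fluorescence behind these values was well above the lowest readings. For Dlx5 it was 398 to 1224 in control and 171 to 928 in shear samples, where the lowest net fluorescence of any feature in a sample was 20 to 68. Net fluorescence also follows the brightness of a sample, so it was read together with the rank of the probe. The Dlx5 probe stood at percentile 57.6 to 69.7 of the measured features in control samples and at percentile 33.0 to 54.2 in shear samples. The ranks of the groups did not overlap either, and they are taken from the same values.

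Dlx5 fell under shear by 0.97 ± 0.23 on the log2 scale (SE, n = 6 per group, 95% interval -1.46 to -0.48), which is 1.96-fold lower with an interval of 1.40 to 2.74. The adjusted p was 0.0492 by limma with Benjamini-Hochberg adjustment over 15603 features, against a threshold of 0.05. In that fit 232 features passed (1.49%), 200 higher and 32 lower under shear, so the share called lower was 0.205%. With another centring, on those features that had a value in every sample, the split was 164 higher and 75 lower. Dlx5 was 226th by p, and 1.74% of features had a lower change. The median change of all features was 0.11, and relative to it Dlx5 changed by -1.08. With every probe as a feature, 354 of 21883 passed (1.62%), 44 of them lower (0.201%), and the adjusted p of Dlx5 was 0.0479.

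The call lies at the edge of the threshold. It was lost when any 1 of the 12 samples was left out, with adjusted p of 0.0531 to 0.0915 by limma and changes of -1.02 to -0.93. It was also lost when the arrays were averaged before the fit (adjusted p 0.147 by limma). An exact permutation test over the 3 array means per group gave a two-sided p of 0.1. That is the smallest it can give, and the separation of the samples fixed it.

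The array means of Dlx5 average the same values, so their separation follows from that of the samples. The 3 control arrays had means of 0.71, 0.55 and 0.43, and the 3 shear arrays -0.56, -0.04 and -0.62. The array of shear 3 and 4 was the highest of its group, and it stood below the lowest control array. Without that array the change was -1.15, with an adjusted p of 0.0816 by limma, and without the array of shear 5 and 6 it was -0.86, with an adjusted p of 0.265. The control samples of Dlx5 lay close together. Their SD of 0.20 compares with a median SD of 0.37 over all features, and 11.5% of features had a lower one. The SD of the shear samples, 0.39, compares with a median of 0.33, and 63.0% of features had a lower one.

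Dye moved with the Dlx5 values. Since the groups did not overlap, shear was bound to be lower within each dye, and only the sizes are given. The Cy5 sample read above the Cy3 sample on 6 of 6 arrays, by 0.17 to 0.52, a pattern shared by 21.3% of the 17080 features. Among Cy3 samples the Dlx5 mean was 0.43 in control and -0.64 in shear, a difference of -1.07 over 3 samples each. Among Cy5 samples it was 0.70 and -0.17, a difference of -0.87. The dyes were balanced between the groups and the fit held dye as a term.

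Msx2 was read low among the features of each sample where it had a value, and it did not pass the test. Its probe read -1.16, -1.33, -2.12, -1.86 and -1.78 in control replicates 1, 2, 3, 5 and 6, and control 4 had no value. It read -2.65, -2.44, -2.39, -2.43, -1.62 and -2.16 in shear replicates 1 to 6. The highest values were those of control 1 and 2, on 1 array, and 5 of 6 shear values lay below all 5 control values, while shear 5 lay within the range of the controls. The means were -1.65 ± 0.40 (SD, n = 5) in control and -2.28 ± 0.36 (SD, n = 6) in shear samples.

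The probe stood at percentile 10.6 to 27.4 in control and 2.93 to 17.9 in shear samples. Its net fluorescence was 108 to 281 in control and 42 to 192 in shear samples, against lowest readings of 20 to 68 for any feature. The fitted change was -0.56 ± 0.31 (SE, 95% interval -1.23 to 0.11), with an adjusted p of 0.460 by limma. The plain difference of the 2 means was not used, because control 4 lacked a value and the fit takes the arrays and dyes into account. Within Cy3 the difference was -0.79 over 2 control and 3 shear samples, and within Cy5 it was -0.51 over 3 of each. The interval includes both no change and a fall of the size seen for Dlx5. A lower change than that of Msx2 was found for 6.72% of features.

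**Figure D2:**
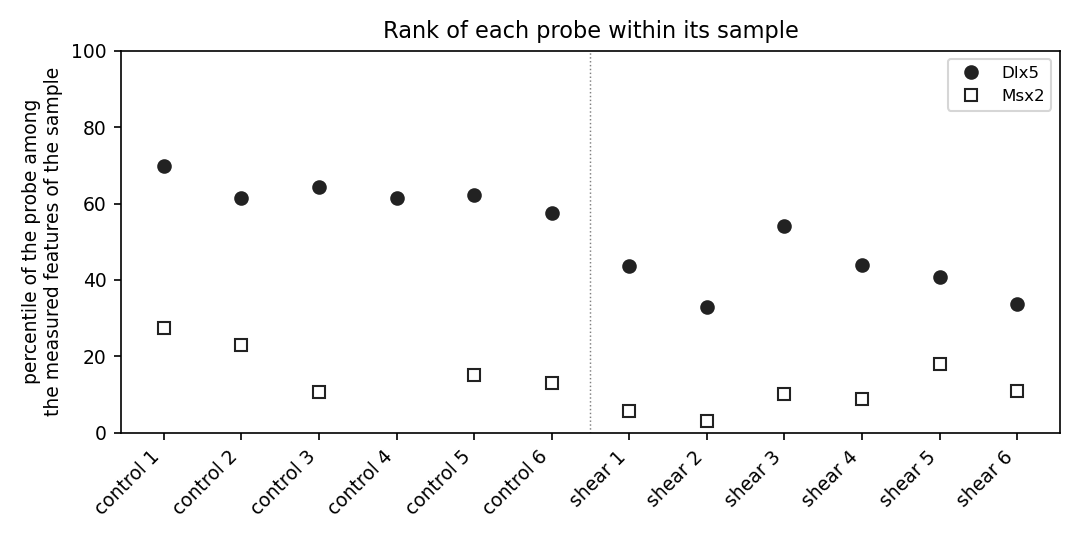
The percentile of the Dlx5 probe (filled circles) and the Msx2 probe (open squares) among the measured features of each sample, where 0 is the dimmest feature and 100 the brightest. Dlx5 ranked at 57.6 to 69.7 in control and 33.0 to 54.2 in shear samples, and Msx2 at 10.6 to 27.4 and 2.93 to 17.9, with no value in control 4; ranks of different probes do not compare amounts of RNA.

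The changes of the 2 genes were not shown to differ. The difference between the log2 values of the probes was taken per array, which removes what an array does to both probes alike. It had a mean of 2.32 over the control arrays and 1.88 over the shear arrays, a shift of -0.44, with a two-sided p of 0.5 in an exact permutation test over 3 arrays per group. Since the smallest p this test can give is 0.1, it could not reach the threshold. Taken alone, the array means of Msx2 were -1.24, -2.12 (1 sample) and -1.82 in control and -2.55, -2.41 and -1.89 in shear, with an exact two-sided p of 0.2.

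The other probe of Msx2 (probe 27714) had values in shear 5 (-1.68, net fluorescence 71) and shear 6 (-2.89, net fluorescence 132). Both samples were on 1 array, and none of the other 10 samples had a value, so no group difference can be drawn from it. Values on 1 array alone were found for 82 features on that array and for 46 to 126 features on each of the 6. The other probe of Dlx5 (probe 28235) had no value in any sample.

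Dlx5 was the only member of the homeobox lists that passed, 1 of 40 measured genes, while 232 of 15603 features passed (1.49%). A count this small does not set the lists apart from all features. The Distal-less and msh families had 9 listed genes, and Dlx1, Dlx2, Dlx3, Dlx4, Dlx6, Msx1 and Msx3 had no probe under a single symbol in the annotation used here. Of 87 other homeobox genes, which include the Hox genes that pattern the body axis and the TALE cofactors of the Meis and Pbx families, 38 were measured, and none passed in either direction. They were evenly split, 19 above 0 and 19 below, with a median of 0.01 against 0.11 for all features. Under the other scalings 17 to 21 of the 38 lay above 0. An unadjusted p under 0.05 was found for 8 of the 38 and for 2157 of 15603 features.

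The lowest change among the 40 measured homeobox genes was that of Pbx2, a TALE cofactor of Hox proteins, named here after its values were seen. It was -1.51 ± 0.60 (SE), with an adjusted p of 0.268 by limma, since its control samples spread from -1.30 to 2.48. Without the array of control 3 and 4 the change of Pbx2 was -2.41 and its adjusted p 0.0213. Dlx5 had the second lowest change of the 40 and a smaller error, and Msx2 the 7th lowest. The genes nearest to the threshold in the list of other homeobox genes were Meis2, Zeb1 and Tgif1. Meis2, another TALE cofactor, had a change of -0.88 ± 0.31, and its other probe read -0.76. Zeb1, a repressor of epithelial genes, had a change of 0.74 ± 0.27, with 0.89 by its other probe. Tgif1, a corepressor of Smad signalling, had 0.97 ± 0.37, with 1.10 by its other probe. Their adjusted p values were 0.198, 0.214 and 0.246 by limma.

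**Figure D3:**
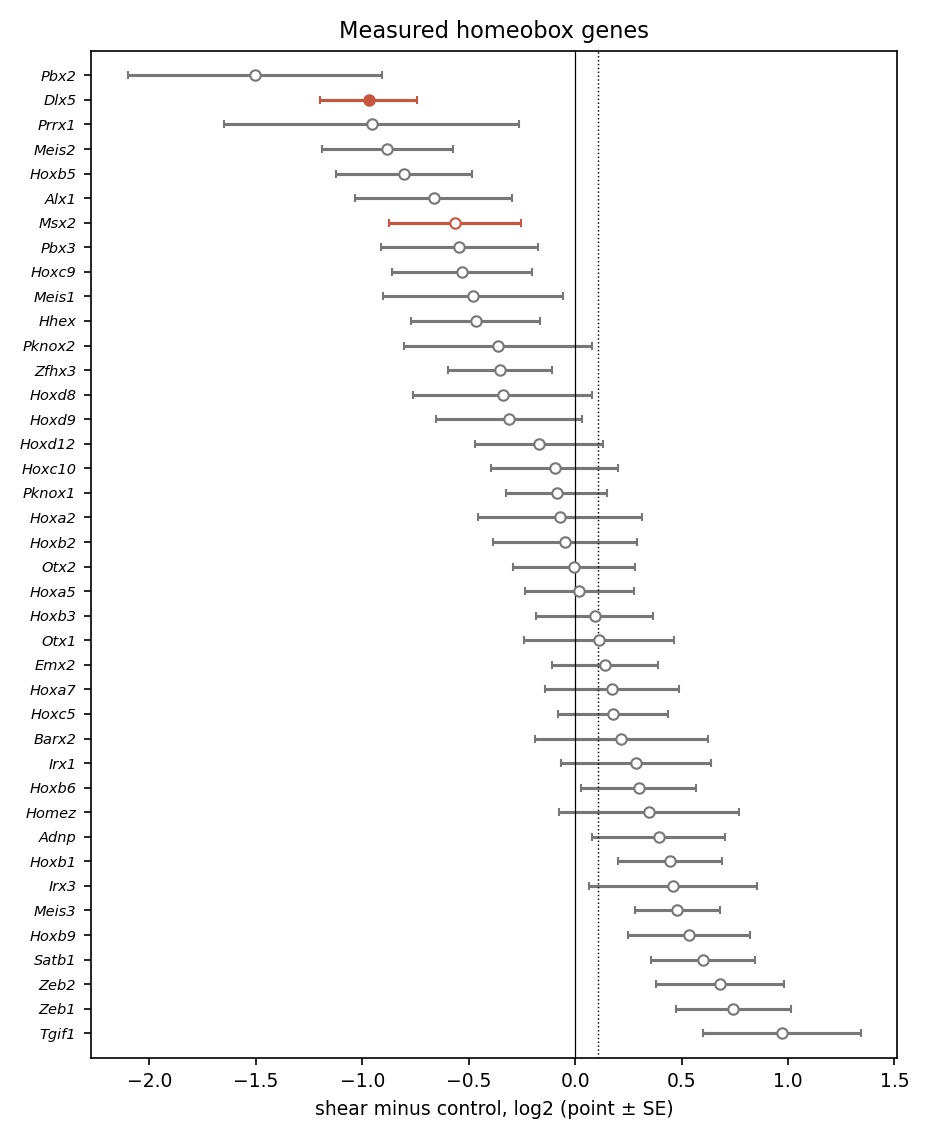
The change of each of the 40 measured homeobox genes, as shear minus control on the log2 scale ± SE, in order, with Dlx5 and Msx2 in red and the filled point marking the gene that passed. The dotted line is the median change of all features, 0.11; the changes run from -1.51 (Pbx2) to 0.97 (Tgif1), with 19 above 0 and 21 below.

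Osteoblast genes downstream of or beside these factors were given from lists of regulators and products. Of 23 regulators, 10 were measured and none passed, with 1 at an unadjusted p under 0.05. Over all features 1.49% passed and 2157 of 15603 had an unadjusted p under 0.05. The regulators had a median change of 0.31, against 0.11 for all features. Of the 10, 8 lay above 0, against 61.0% of all features, or 7 when centred on common features. Snai1, a repressor of osteoblast genes, had a change of 1.24 ± 0.39 (adjusted p 0.150 by limma). Cbfb, the partner subunit of Runx2, had 0.42 ± 0.21 (0.423), and Lef1, a nuclear effector of Wnt signalling, had -0.64 ± 0.36 (0.470). Runx2 and Sp7, which Dlx5 is known to activate, were not analysed here.

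Of 38 osteoblast products and matrix genes, 17 were measured, 2 rose and none fell, while 200 of 15603 features rose and 32 fell. Slc20a1, a sodium-dependent phosphate transporter, read -0.89 to -0.20 in control and 2.78 to 3.68 in shear samples. Its change was 3.67 ± 0.36 (adjusted p 3.40e-04 by limma), and its 2 other probes read 3.55 each. Lox, the enzyme that crosslinks collagen, read 1.22 to 2.80 in control and 3.63 to 4.58 in shear samples. It rose by 2.10 ± 0.42 (adjusted p 0.0255 by limma). The call of Lox was lost without shear 1 (adjusted p 0.0543 by limma), without the array of control 5 and 6 (0.0872) and without any 1 of the shear arrays (0.0535 to 0.143). Tnc, the matrix protein tenascin C, had a change of 1.28 ± 0.35 (0.0954 by limma), and its other probes read 1.49 to 2.39. Ank, a transporter of pyrophosphate, had 1.03 ± 0.65 (0.522), and Bgn, the proteoglycan biglycan, had -0.51 ± 0.36 (0.577). The other probes of Bgn read -0.12 to -0.08. The median of the 17 was 0.06, against 0.11 for all features, and 12 of them lay above 0, against 61.0% of all features. With samples centred on common features, 7 of the 17 lay above 0 and the median was -0.08.

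BMPs are extracellular ligands that signal through paired serine and threonine kinase receptors to Smad proteins, and Dlx5 and Msx2 are both known responders to them. Of 53 listed genes of the BMP pathway, 28 were measured and none passed by limma, with 4 at an unadjusted p under 0.05. Among all features 1.49% passed and 2157 of 15603 had an unadjusted p under 0.05. The 28 genes had a median change of 0.24, and 20 of 28 lay above 0, against 61.0% of all features.

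Among 12 ligands 3 were measured. Bmp1, a protease that processes procollagen and frees BMPs in spite of its name, had a change of -0.23 ± 0.40, with -0.16 to 0.34 by its other probes. Bmp5 had -0.18 ± 0.28 and Gdf10 0.13 ± 0.30, with adjusted p values of 0.829 to 0.894 for the 3 genes by limma. Bmp4 had a probe with no value in any sample, and Bmp2, Bmp6 and Bmp7 had no probe under a single symbol.

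Receptors and coreceptors were measured for 8 of 10 genes, with a median of 0.41, and 7 of them lay above 0. Acvr2b and Bmpr2, which are type II receptors, had changes of 0.72 ± 0.30 (adjusted p 0.302 by limma) and 0.73 ± 0.35 (0.384). Eng, the coreceptor endoglin, had 0.80 ± 0.36 (0.340), but its other probe read -0.39. The 7 of 8 above 0 were also found under each other scaling tried.

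Smads and the Smurf ligases that mark Smads and receptors for degradation were measured for 6 of 8 genes, with a median of 0.57. All 6 lay above 0 in the fit as reported, and 4 to 5 of 6 did under the other scalings. Smurf1 read 0.56 to 1.15 in control and 1.54 to 2.35 in shear samples. Its change was 1.04 ± 0.27 (adjusted p 0.0805 by limma). Smurf2 had 0.71 ± 0.37 (0.426), with -0.03 to 0.86 by its other probes, and Smad1, a Smad that BMP receptors phosphorylate, had 0.71 ± 0.38 (0.431), with 0.97 by its other probe.

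Inhibitors were measured for 7 of 17 genes, with a median of -0.10, and 3 of them lay above 0, or 2 under each other scaling. Skil, a nuclear corepressor that binds Smads, read -1.17 to -0.14 in control and 0.17 to 1.91 in shear samples. Its change of 1.44 ± 0.34 missed the threshold, with an adjusted p of 0.0532 by limma, and its other probe read 1.40. Sostdc1, a secreted BMP antagonist, had -0.49 ± 0.38 (0.620), and Ski, a relative of Skil, had -0.57 ± 0.52 (0.686). The other probe of Ski read -0.24. Grem1, another secreted antagonist, had values in 6 control and 2 shear samples and was not tested.

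Direct targets of BMP signalling were measured for 5 of 10 genes, and their median change was 0.09, or -0.04 with scale normalization. Id2, Id4 and Id3 encode inhibitors of DNA binding that dimerise with basic helix-loop-helix factors. They had changes of 0.48 ± 0.63, 0.24 ± 0.34 and -0.18 ± 0.42, with adjusted p values of 0.800, 0.817 and 0.894 by limma. Id1 had no value in any sample.

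**Figure D4:**
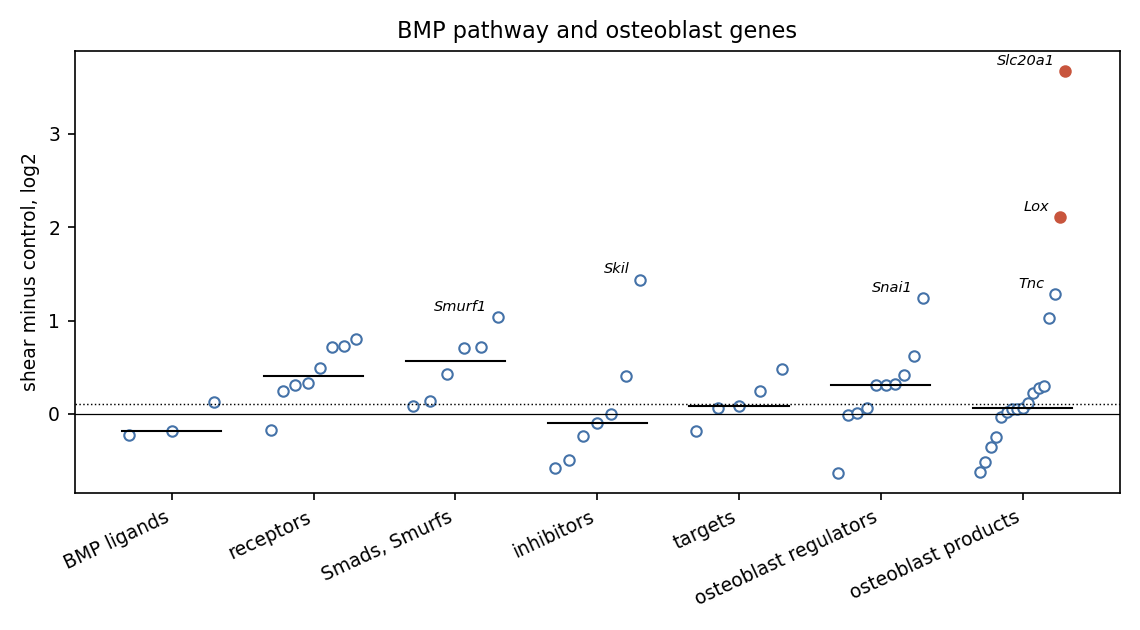
The change of each measured gene of the BMP pathway and of the osteoblast lists, as shear minus control on the log2 scale; a short line is the median of each list and a dotted line the median of all features, 0.11. Filled points passed the threshold, which were Slc20a1 (3.67) and Lox (2.10); Hey1 and Smad7, at 0.07 and 0.09, stand in 2 lists each.

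Proteins known to bind Dlx5 or Msx2 were measured for 4 of 7 genes, and none passed, nor had any an unadjusted p under 0.05. Over all features these shares were 1.49% and 2157 of 15603. Maged1, which binds the homeodomain of Dlx and Msx proteins, had a change of -0.28 ± 0.38 (adjusted p 0.814 by limma). Pias2, a SUMO ligase that binds Msx2, had 0.25 ± 0.26 (0.737), and its relative Pias1 had -0.13 ± 0.22 (0.848).

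The genes most like Dlx5 were ranked by the Pearson correlation of log2 values over the 12 samples, among 7776 named genes with a value in all of them. The 5 highest were Slc31a2 (0.947), Prmt2 (0.943), Mapkapk5 (0.937), Trim13 (0.933) and Dlgap3 (0.928). They encode a copper transporter, an arginine methyltransferase, a protein kinase, a ubiquitin ligase and a scaffold protein of synapses. Their changes were -0.78, -0.99, -0.74, -0.52 and -0.68, and none passed by limma, with adjusted p values of 0.0849 to 0.296. The 12 points of each correlation share arrays, groups and dyes, so a gene that is lower under shear and brighter in Cy5 ranks high.

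For Msx2 the ranking covered the 11 samples with a value and 7777 genes. The 5 highest were Asxl3 (0.918), Mms22l (0.911), Eif4e3 (0.909), Hbb-y (0.898) and Slc25a13 (0.894), with changes of -0.47, -0.45, -0.70, -0.10 and -0.24, none of which passed. The 2 lists of 5 shared no gene. Correlations of this size over 11 or 12 samples are a description of these samples.

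The size of the Dlx5 change varied little with the processing, while its side of the threshold varied often. Over 35 alternatives the change lay between -1.15 and -0.86, and the adjusted p by limma between 0.00240 and 0.265, with 8 alternatives under the threshold. The lowest adjusted p came from the fit that treats the samples of an array as independent. Msx2 could be fitted in 33 alternatives, with changes of -0.78 to -0.31 and adjusted p values of 0.0994 to 0.736. It passed in 0 of the 33.

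**Figure D5:**
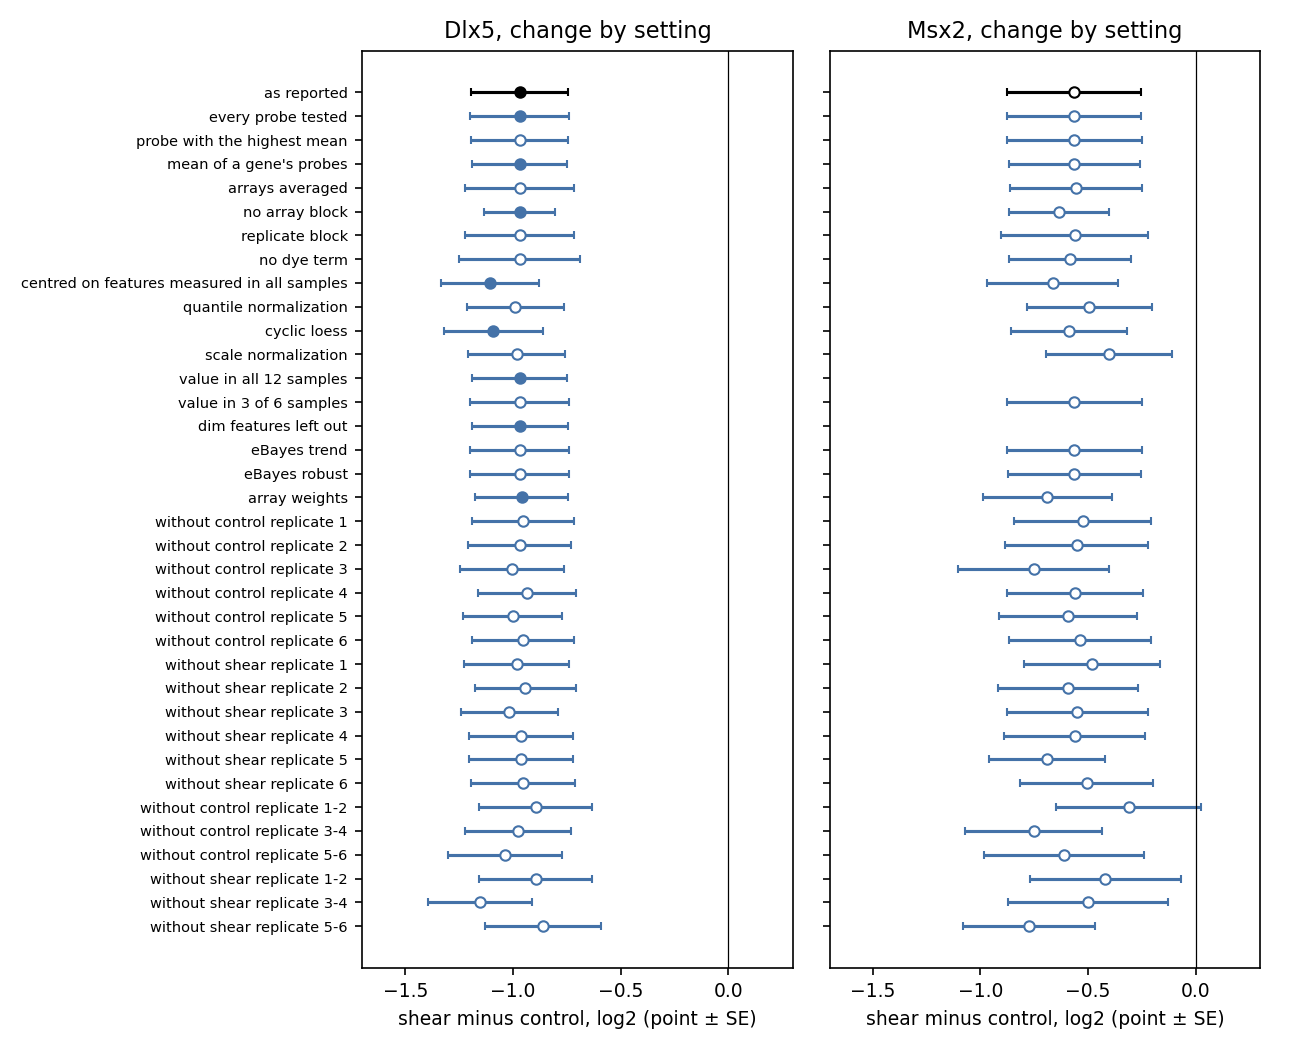
The change of Dlx5 (left) and Msx2 (right), as shear minus control on the log2 scale ± SE, as reported (black) and under each alternative (blue), with filled points for an adjusted p under 0.05. The Dlx5 points lie between -1.15 and -0.86 and the Msx2 points between -0.78 and -0.31, and Msx2 could not be fitted under 2 of the alternatives.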

How the data were processed

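The deposited table held log2 values made by the authors, 1 per feature and sample. Per the labels, 6 two-colour arrays took 2 samples of 1 group each, and replicates 1 and 2, 3 and 4, and 5 and 6 were taken to share an array, which was inferred from the design and the dyes. With 1 scale per block and sample, 100% of values came out as whole net fluorescence within 0.002, in 576 of 576 combinations of 48 blocks and 12 samples, so the base of the logarithm is known. Not given in the sources used here are the scanner, the correction for background and the reason why some spots have no value. The number of arrays limits the precision.

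Of the 28704 probes, 18511 had 1 gene symbol in the annotation and 937 several, which were not named. Through the Entrez number 18267 symbols were kept or updated, which gave 10225 genes. A single probe stood for a gene, namely that with values in most samples and, among equals, that with the highest mean. Each probe without a single symbol entered as a feature of its own, so the 15603 features are not all named genes. A feature needed a value in 4 of 6 samples of each group. limma 3.58.1 in R 4.3.3, with the data.table package 1.17.8, had fixed terms for group and dye and a random block for the array, whose estimated correlation was 0.736. No array held both groups. The comparison therefore rests on 3 arrays per group, although the fit counts 12 samples in its degrees of freedom, which can make p-values too small. P-values were adjusted by Benjamini-Hochberg over all features, with a threshold of 0.05, and changes are shear minus control. The fit was tested on simulated data. Exact permutation tests used array means. Tables and plots were made with matplotlib 3.10.9, pandas 2.3.3 and numpy 2.4.6 under Python 3.11.15.

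The members, the gene lists and the alternatives were chosen with earlier results of these data known. The rule named both genes, every member of a list that passed and up to 3 further members per list by smallest p, and for likeness the 5 highest correlations. Osteoblast markers were named in full and other markers given as counts. Examples from the lists were chosen by that rule, except where said. The alternatives were other choices of probe, scaling, filter, array, dye and variance model, and leaving out each sample and each array. RefSeq gave the promoter of Msx2, which was cut at the start of the gene.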

Additional observations from a re-analysis of the deposited data

Results flagged for a closer look

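In the control group Col1a1, the gene for a chain of type I collagen, had 1 sample far from the others. Control 4 read -0.037 and the next lowest control sample 1.63. Of 72 groups of named genes and samples examined in this way, 1 had such a sample. Chance gives about 1 in 20, so 1 of 72 is no more than chance gives. Control 4 also had the fewest features with a value and no value for Msx2.

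The other probe of Msx2, which entered no comparison, had values in 2 sheared samples of 1 array and in no control sample. Shear 5 read -1.68 and shear 6 read -2.89. Whether these readings reflect Msx2 RNA was not tested.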

How the results depend on the processing

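Dlx5 kept its direction in all 35 alternatives. It was past the threshold in 8 of them, and missed it with -0.97 for the probe with the highest mean, for averaged arrays, without the dye term, with values in 3 of 6 samples, and with trended or robust variances, with -0.99 for quantile and -0.98 for scale normalization. Leaving out samples or arrays gave -1.15 to -0.86, in 18 fits that all missed the threshold. It was kept when centred on common features (-1.11, where the median change of all features was -0.02) and with cyclic loess (-1.09). Msx2 kept its direction and missed the threshold in all 33 alternatives that could be fitted, and its second probe allowed no fit.

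The replicate numbers did not pair the samples, since deviations of same-numbered samples correlated at -0.09 to 0.12. With a replicate block the Dlx5 change was -0.97 (adjusted p 0.116 by limma), 100 features passed, no homeobox gene passed (0), and 1 osteoblast gene passed.

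The number of features that passed was 232 as reported, 354 with every probe, 72 with averaged arrays, 1717 without the array block, 366 without the dye term, 133 with quantile normalization, 359 with array weights, and 39 to 235 when samples or arrays were left out. The count of homeobox genes was 1 as reported, 0 under each setting that lost Dlx5 above, 7 without the array block, and 0 to 1 on leaving out samples or arrays. The 1 was then Pbx2. The count of osteoblast genes was 2 as reported, 3 with every probe and with the mean of a gene's probes, where Tnc was added (1.72, adjusted p 0.0227 by limma with the mean of probes), 4 without the array block, 1 with scale normalization and 1 to 2 on leaving out. The count of genes of the BMP pathway was 0 as reported, 1 with every probe, with the mean of a gene's probes, without the dye term, with a value in all 12 samples, with robust variances and with array weights, 3 without the array block, and 0 to 1 on leaving out.

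Of the 34 other named genes, 25 kept their direction in every alternative, and Slc20a1 kept its call in 35 of 35 and Lox in 28 of 35. None of the other 9 passed in any alternative, and their lowest adjusted p was 0.103 by limma (Eng, without the array block). Alpl turned to -0.081 (common features), -0.019 (loess) and -0.14 (weights), and Col1a2 to -0.085, -0.15 and -0.0094 under those settings, to -0.057 with quantile and -0.30 with scale normalization. Sparc turned to -0.024, -0.072 and -0.019 under the same 3 settings, to -0.30 with the mean of its probes and to -0.34 with scale normalization. Bmp1 turned to 0.053 with the mean of its probes, Eng to -0.39 with the brightest probe, Gdf10 to -0.0083 with common features and Id4 to -0.073 with scale normalization. On leaving out samples or arrays the ranges were -0.31 to 0.63 for Alpl, -0.70 to 0.15 for Bmp1, -0.58 to 0.65 for Col1a2, -0.71 to 0.34 for Col1a1, -0.39 to 1.15 for Eng, -0.14 to 0.31 for Gdf10, -0.38 to 0.074 for Id3, -0.17 to 0.59 for Id4 and -0.10 to 0.33 for Sparc. The -0.39 of Eng is the change of its other probe, since each fit chose the probe of a gene anew. The causes of the other shifts were not tested. Net fluorescence was 108 to 281 in control and 42 to 192 in shear samples for Msx2. For Dlx5 it was 398 to 1224 and 171 to 928. What this difference did to the fits was not tested.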
